A study of Rattus norvegicus with 36 samples.

Results

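A group of 84 genes of the rat nucleus accumbens was higher after a single day of cocaine than after saline, and lower again after 5 days of cocaine. The genes were chosen from their measured levels. Reads were summed over the technical replicates of each pool and divided by median-of-ratios size factors, which set the typical gene of all pools to the same level, giving normalized counts. A gene was a member if its normalized count averaged at least 40 over the 9 pools, if all 3 Sal-Coc pools lay above all Sal-Sal and all Coc-Coc pools, if log2 (mean Sal-Coc / mean Sal-Sal) was 0.4 or more, and if log2 (mean Coc-Coc / mean Sal-Coc) was -0.4 or less. Of 31546 genes in the tables, 13607 reached the mean of 40 and 84 of those met the whole rule (0.617%). The rise and the fall were used to choose the members, so both are described here without a test.

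The 3 groups were 8-week-old male Sprague-Dawley rats, an outbred wild-type stock, which received 3 intraperitoneal injections per day for 5 days and were killed 24 h after the last. Sal-Sal rats received 15 injections of saline (serum in the labels), and Coc-Coc rats received 15 injections of cocaine at 20 mg per kg each. Sal-Coc rats received saline and then 3 cocaine injections on the last day. The labels count 13 saline injections and the methods of the study 12. Each group had 3 pools of 2 rats according to the methods, whereas the labels name 1 rat per library, and each pool was sequenced as 4 technical replicates, which differed by little more than sampling noise (chi-square per degree of freedom 1.00 to 1.02). The labels call the Coc-Coc rats vulnerable in one field and tolerant in another. All groups shared the handling and the injections, and none was left without injections. Totals ranged from 36372166 to 42449841 counts per pool. With n = 3 pools per group, p-values set the difference between groups against the spread between pools. With pools of 2 rats, as the methods state, this is not the spread between single rats.

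The nucleus accumbens is the part of the ventral striatum that receives dopamine from the midbrain. Cocaine blocks the reuptake of dopamine, and repeated exposure leaves some responses to the drug larger and others smaller. Beside neurons the tissue holds blood vessels, whose walls consist of endothelial cells, mural cells and, around larger vessels, fibroblasts, on a basement membrane of laminins, collagens and linking glycoproteins. Transport proteins of these walls and of the meninges decide which solutes pass between blood and brain. Several of the genes described here are known from such cells, others from chromatin, cilia or calcium signalling. In bulk tissue, more cells of a type and more RNA per cell cannot be told apart.

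The tables list genes by Ensembl identifier, without symbols. Symbols were taken from the gene lists of the study, by matching each listed fold change to the ratio of group means of the counts. Of the members, 56 received a symbol this way and 28 did not. Only genes that the study had listed as changed could be named, so the named members are the ones with larger changes against Sal-Sal. Their median log2 (Sal-Coc / Sal-Sal) was 1.02, against 0.63 for the members without a symbol. For the same reason the tissue label could not be checked, since 0 of 12 markers of striatal projection neurons carried a symbol.

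The members were genes of low to moderate level. Their median normalized count was 149, against 1098 for all genes with a mean of at least 40, and 26 of the 84 lay under 100. Their log2 (Sal-Coc / Sal-Sal) ran from 0.42 to 2.10 with a median of 0.88, and log2 (Coc-Coc / Sal-Coc) from -1.04 to -0.40 with a median of -0.52. By the same fold and separation 1353 genes were raised in Sal-Coc, and the members are 6.21% of them. The remaining 1269 had a median log2 (Sal-Coc / Sal-Sal) of 0.61 and a median normalized count of 893.

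In edgeR's quasi-likelihood test, 65 of the 84 members had an adjusted p under 0.05 in Sal-Coc against Sal-Sal, where 10.6% of 15641 tested genes were called higher and 5.86% lower, and 0 members lower. In Coc-Coc against Sal-Coc the test called 0% of all genes in either direction, and 0 of the members. At an unadjusted p under 0.05, there were 1453 genes in that contrast, 65 of them members, and DESeq2 called 153 genes. The 13 members called lower by DESeq2 included *Trpm4*, *Slc6a13*, *Ltbp4*, *Ift140*, *Slc29a1*, *Abca7*, *Col11a1* and *Cpne9*. All 3 Coc-Coc pools lay below all 3 Sal-Coc pools for 9.78% of genes with a mean of at least 40, and for the members by the rule; all 3 Sal-Coc pools lay above all Sal-Sal pools for 19.5%. The rule used both contrasts, so nothing is read from these counts. The fall after repeated cocaine is a separation of 3 pools from 3 for each gene, and edgeR's test called it for none of them singly.

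**Figure D1:**
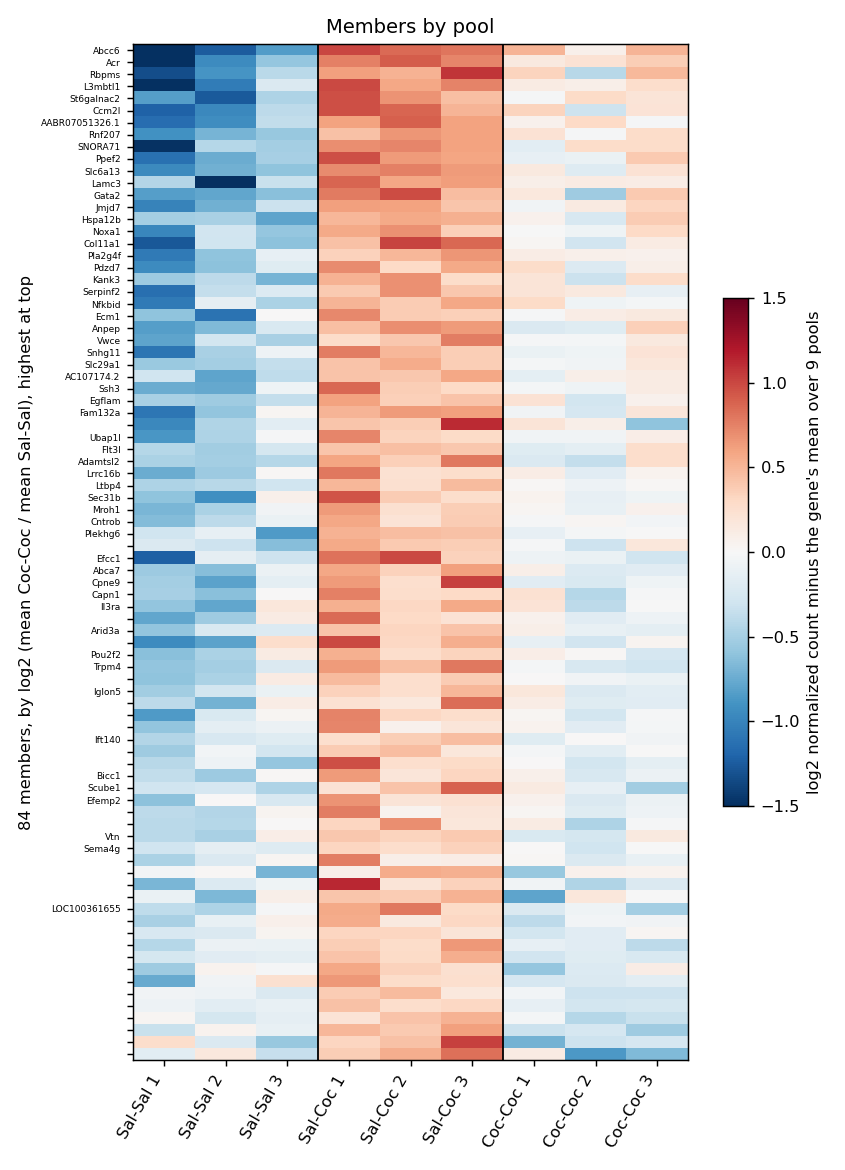
Colour gives the log2 normalized count of each of the 84 members in each of the 9 pools minus the gene's mean over the pools, ordered by log2 (mean Coc-Coc / mean Sal-Sal); symbols are given where one was joined. The Sal-Coc columns are above the gene's mean for all 84 members, Sal-Sal 1 is the lowest Sal-Sal pool for 52 of them, and the Coc-Coc columns are closer to the mean.

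The heat map of members by pool shows that the Sal-Sal pools differed among themselves. Median deviations of the members from their own mean were -0.59, -0.47 and -0.19 (log2) in Sal-Sal pools 1, 2 and 3. The Sal-Coc pools had 0.57, 0.38 and 0.44, and the Coc-Coc pools 0.00, -0.17 and 0.00. Sal-Sal 3 was the highest saline pool for 59 of the 84 members. The 20 most abundant genes took 21.1% of the counts in Sal-Sal 1 and 12.8% in Sal-Coc 1, and between 15.6% and 19.2% in the other pools. The pools with the lowest and the highest member levels were those with the largest and the smallest share in few genes. The other pools did not all follow this order. Coc-Coc 1 had 19.2% at a median of 0.00, and Sal-Sal 3 (17.7%) had higher member levels than Sal-Sal 2 (15.9%). The part of this share in the members' levels was not tested. The median coefficient of variation of the members was 21.7% for Sal-Sal, 13.4% for Sal-Coc and 11.5% for Coc-Coc.

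The level in Coc-Coc was also set beside that in Sal-Sal. Coc-Coc against Sal-Sal has no threshold in the rule, although its pools were used to choose the members and the rise in Sal-Coc was measured against the same Sal-Sal pools. The mean of Coc-Coc lay above that of Sal-Sal for 74 members and below it for 10. Of all tested genes, 48.5% had a log2 fold change above 0 in this contrast in edgeR's fit. The rule required low Sal-Sal and low Coc-Coc levels against Sal-Coc, so the 74 are a description. The median log2 (Coc-Coc / Sal-Sal) was 0.33, and the median share of the rise that was absent in Coc-Coc was 69.2%, with a range from 38.8% to 130.6%. This share is made of the 2 differences used by the rule, so it is a description. A share of 100% means that the Coc-Coc mean equalled the Sal-Sal mean. The share was under 50% for 10 members, between 50% and 100% for 64 and over 100% for 10.

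All 3 Coc-Coc pools lay above all 3 Sal-Sal pools for 31 members, where 20.1% of genes with a mean of at least 40 did so. The groups overlapped for the other 53, and for none did all Coc-Coc pools lie below all Sal-Sal pools. All 31 were named genes, and symbols came only from the study's lists of changed genes. In edgeR's test, 12 members were higher in Coc-Coc than in Sal-Sal (adjusted p under 0.05), where 7.13% of tested genes were called higher and 3.75% lower, and 0 members were lower. Of the 1269 other genes raised in Sal-Coc, 740 were called higher in Coc-Coc against Sal-Sal. The rule bounds the members' Coc-Coc mean from above, so the 2 counts are given side by side without a comparison. The 12 calls depended on single pools, and so did the 1702 calls over all tested genes. The members' calls became 0 without Coc-Coc 3, 2 without Sal-Sal 1, 3 without Coc-Coc 2 and 5 without Coc-Coc 1. They became 6 without Sal-Sal 2, Sal-Coc 2 or Sal-Coc 3, and 22 without Sal-Sal 3. Over all genes the calls were 0 without Coc-Coc 3, 292 without Sal-Sal 1, 174 without Coc-Coc 2 and 837 without Coc-Coc 1. The all-gene calls were 984 without Sal-Sal 2, 1052 without Sal-Coc 2, 1266 without Sal-Coc 3 and 1820 without Sal-Sal 3. Of the 9 fits that left out a pool, *Abcc6* and *Rnf207* were called in 8, *Slc6a13* in 7, *Slc29a1* and *Acr* in 6, and *Ltbp4* in 4. *L3mbtl1*, *Jmjd7*, *Ppef2*, *St6galnac2* and *AABR07051326.1* were called in only 2 of them and *Hspa12b* in 1.

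**Figure D2:**
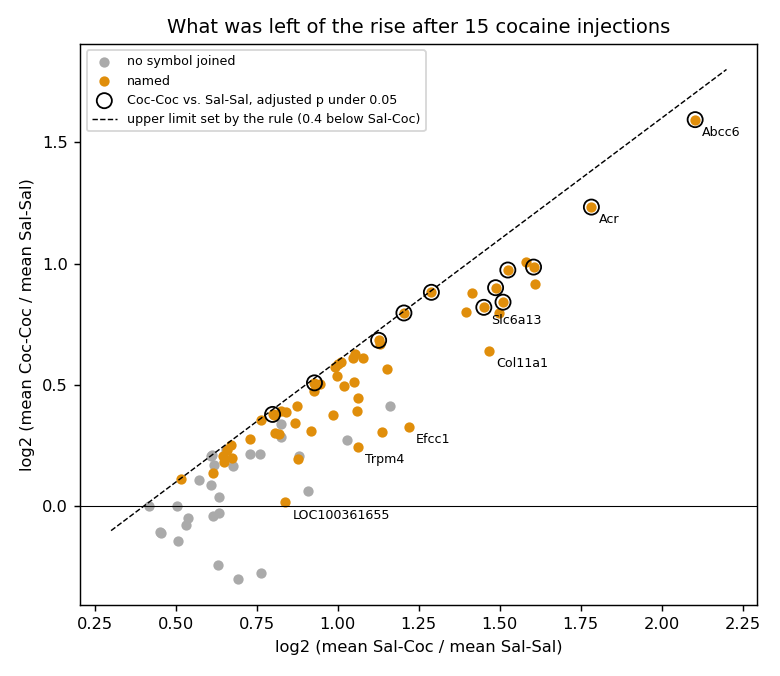
Each point is 1 of the 84 members, with log2 (mean Sal-Coc / mean Sal-Sal) on the horizontal axis and log2 (mean Coc-Coc / mean Sal-Sal) on the vertical axis; circles mark the 12 members called in Coc-Coc against Sal-Sal by edgeR. The dashed line is the bound the rule sets, 74 points lie above 0, and the 10 below 0 have no symbol. Symbols came only from the study's lists of changed genes.

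**Figure D3:**
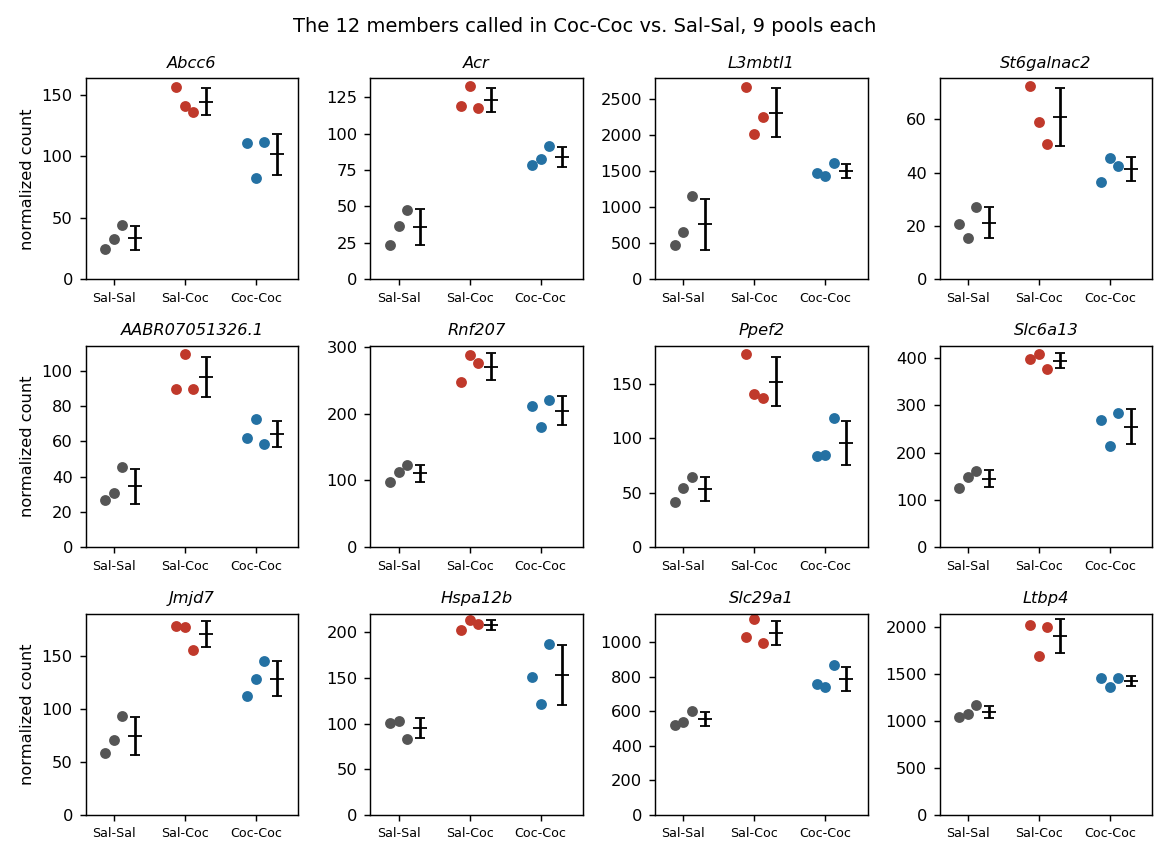
Normalized counts in the 9 pools of the 12 members called in Coc-Coc against Sal-Sal, 1 panel each, with axes from 0; dots are pools and the bar gives the mean with its SD (n = 3). In every panel all Coc-Coc pools lie above all Sal-Sal pools, and the panels were chosen by a call in that contrast. The rule required Sal-Coc above both other groups.

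The plot of the 12 called members shows levels for the transporters first. *Abcc6* (ENSRNOG00000028781), an ABC transporter of the plasma membrane whose loss causes calcification of elastic tissue, stood at 24.4, 32.8 and 43.8 normalized counts for the 3 Sal-Sal pools, 157, 141 and 136 for Sal-Coc and 111, 82.5 and 111 for Coc-Coc. It had the largest rise of all members, a log2 (Sal-Coc / Sal-Sal) of 2.10, and lost the smallest share of it, 38.8%. Its log2 fold change in Coc-Coc against Sal-Sal was 1.58 (SE 0.24, adjusted p = 0.0161 from edgeR's test). *Slc6a13* (ENSRNOG00000012876), a GABA transporter of meninges and blood vessels, stood at 125, 148 and 160 for Sal-Sal, 398, 409 and 377 for Sal-Coc and 269, 213 and 283 for Coc-Coc. All Coc-Coc pools lay above all Sal-Sal pools, and Coc-Coc exceeded Sal-Sal by 0.82 on the log2 scale (SE 0.15, adjusted p = 0.0172 from edgeR's test). *Slc29a1*, which carries adenosine and other nucleosides across membranes, was at 523, 540 and 602 for Sal-Sal, 1034, 1133 and 999 for Sal-Coc and 757, 742 and 869 for Coc-Coc. Its excess over Sal-Sal was 0.51 (SE 0.10, adjusted p = 0.0189 from edgeR's test).

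The other 2 membrane proteins came closer to the saline level. *Trpm4*, a cation channel opened by calcium, had 90.4, 95.6 and 117 normalized counts for Sal-Sal, 213, 186 and 235 for Sal-Coc and 134, 115 and 110 for Coc-Coc. Here 83.1% of the rise was absent, and the Coc-Coc and Sal-Sal pools overlapped. *Abca7*, an ABC transporter of lipids, had 427, 400 and 585 for Sal-Sal, 930, 788 and 949 for Sal-Coc and 660, 538 and 552 for Coc-Coc. Its Coc-Coc pools overlapped Sal-Sal pool 3, and the log2 fold change of 0.31 had an adjusted p of 0.205 in edgeR's test.

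A set of 10 members encodes proteins of the extracellular matrix or bound to it, and a median of 63.8% of their rise was absent in Coc-Coc. *Col11a1* (ENSRNOG00000023148), a chain of a fibril-forming collagen, had the largest fall of these. It stood at 942, 1844 and 1490 normalized counts for Sal-Sal, 3086, 4610 and 4118 for Sal-Coc and 2327, 1861 and 2481 for Coc-Coc. The fall in log2 (Coc-Coc / Sal-Coc) was -0.82, and Coc-Coc stayed above Sal-Sal in all pools, narrowly between Coc-Coc 2 and Sal-Sal 2, with an adjusted p of 0.102 in edgeR's test. *Lamc3*, a laminin chain, went from 90.4, 39.6 and 97.8 to 226, 184 and 189, and stood at 131, 133 and 133 in Coc-Coc. The Coc-Coc pools of *Lamc3* were nearly equal, whereas Sal-Sal 2 had less than the other saline pools. *Egflam*, which encodes pikachurin, a partner of dystroglycan, had 173, 167 and 189 for Sal-Sal, 369, 310 and 326 for Sal-Coc and 282, 200 and 254 for Coc-Coc. Its Coc-Coc pools all lay above the saline pools, Coc-Coc 2 by the least.

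The matrix glycoprotein *Vtn* (vitronectin, also a marker of mural cells) was at 310, 292 and 438 for Sal-Sal, 540, 513 and 537 for Sal-Coc and 350, 339 and 454 for Coc-Coc. Of its rise, 81.1% was absent, and the Coc-Coc pools overlapped the Sal-Sal pools. *Ltbp4*, which binds latent TGF-beta in elastic fibres, was at 1038, 1075 and 1165 for Sal-Sal, 2014, 1691 and 1996 for Sal-Coc and 1449, 1358 and 1454 for Coc-Coc. It was the only matrix member called in Coc-Coc against Sal-Sal (log2 fold change 0.38, SE 0.08, adjusted p = 0.0263 from edgeR's test). *Efemp2*, *Adamtsl2*, *Ecm1*, *Vwce* and *Scube1* made up the rest, with shares of the rise absent between 50.4% and 82.8%. For *Scube1*, a secreted and cell-surface glycoprotein, Coc-Coc 3 at 206 lay below all 3 Sal-Sal pools and Coc-Coc 1 at 326 above them.

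A set of 7 members is known from vessel walls or as blood proteins, and 6 of them had all Coc-Coc pools above all Sal-Sal pools, where 31 of the 56 named members and 20.1% of genes with a mean of at least 40 did so. *Gata2*, a transcription factor of endothelial and blood-forming cells, stood at 24.4, 25.1 and 27.9 normalized counts for Sal-Sal, 74.3, 84.9 and 59.5 for Sal-Coc and 48.1, 29.9 and 56.6 for Coc-Coc. Coc-Coc 2 was close to the saline level, and the log2 fold change of 0.79 in Coc-Coc against Sal-Sal had an adjusted p of 0.0930 in edgeR's test. *Ccm2l*, a relative of a gene of cerebral cavernous malformation, had 24.4, 29.0 and 42.8 for Sal-Sal, 110, 104 and 80.0 for Sal-Coc and 71.1, 45.4 and 65.1 for Coc-Coc. Its Coc-Coc pools all lay above the Sal-Sal pools, and Coc-Coc 2 was nearest to saline. *Hspa12b*, an endothelial relative of the HSP70 chaperones, had 101, 102 and 82.9 for Sal-Sal, 203, 213 and 209 for Sal-Coc and 150, 122 and 188 for Coc-Coc. The Sal-Coc pools of *Hspa12b* were close together (208 ± 5.33, SD, n = 3), and it was called in Coc-Coc against Sal-Sal (log2 fold change 0.69, adjusted p = 0.0423 from edgeR's test). *Anpep*, aminopeptidase N of pericytes, had 30.1, 33.8 and 45.6 for Sal-Sal, 73.3, 87.0 and 83.2 for Sal-Coc and 46.0, 47.2 and 68.8 for Coc-Coc. The lowest Coc-Coc pools of *Anpep* were just above Sal-Sal 3. *Kank3*, *Serpinf2* (alpha-2-antiplasmin) and *Fam132a* (a secreted C1q-related protein) completed this set.

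**Figure D4:**
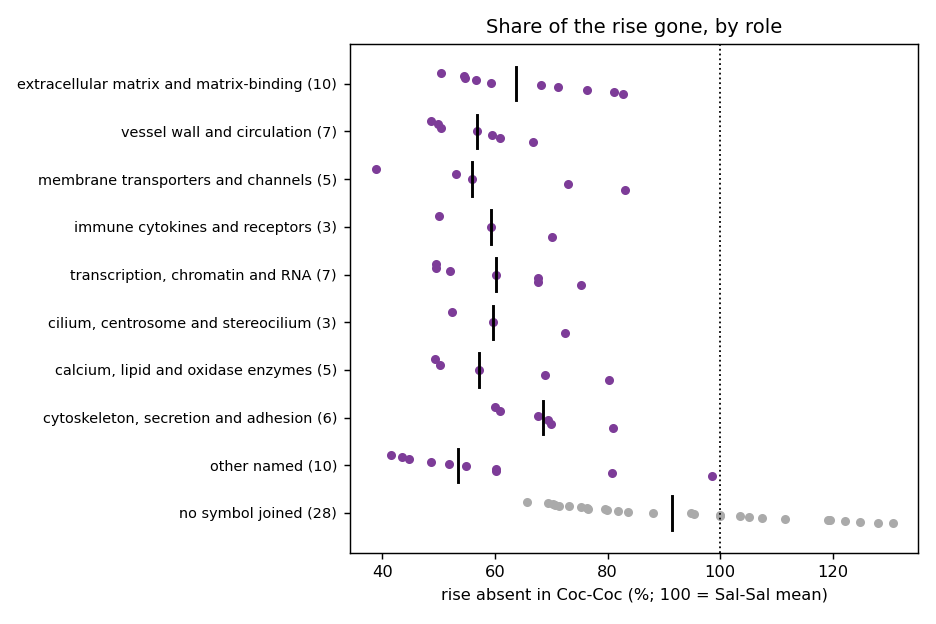
Each dot is 1 member, placed by the share of its Sal-Coc rise that was absent in Coc-Coc (percent; 100 at the dotted line means the Sal-Sal mean) and grouped by role, with the number of members in brackets and a bar at the median. The medians of the named roles lie between 53.4% and 68.6%, and that of the 28 members without a symbol is 91.5%. Symbols came only from the study's lists of changed genes, so these medians are not compared.

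Members acting on transcription, chromatin or RNA included the most abundant member. *Snhg11* (ENSRNOG00000036802), a long non-coding RNA of neurons that hosts small nucleolar RNAs, stood at 4986, 7659 and 10099 normalized counts for Sal-Sal, 18157, 15082 and 13834 for Sal-Coc and 9936, 10187 and 12307 for Coc-Coc. Sal-Sal 3 overlapped the Coc-Coc pools, and the median share of the rise absent over the 7 genes of this role was 60.2%. *L3mbtl1* (ENSRNOG00000007044), a reader of methylated histones, stood at 472, 651 and 1157 for Sal-Sal, 2673, 2009 and 2251 for Sal-Coc and 1468, 1434 and 1613 for Coc-Coc. All Coc-Coc pools lay above all Sal-Sal pools, and the log2 fold change in Coc-Coc against Sal-Sal was 0.98 (SE 0.26, adjusted p = 0.0435 from edgeR's test). Sal-Sal 3 was 2.45 times as high as Sal-Sal 1 for *L3mbtl1*, the largest such ratio among the members. *Rbpms*, an RNA-binding protein, had 25.5, 34.8 and 48.4 for Sal-Sal, 98.1, 92.1 and 135 for Sal-Coc and 80.5, 48.1 and 89.6 for Coc-Coc, so that Coc-Coc 2 fell within the saline range. *SNORA71*, a small nucleolar RNA, was at 20.9 to 43.5 for Sal-Sal, 88.6 to 97.3 for Sal-Coc and 52.3 to 70.8 for Coc-Coc. Such RNAs carry no long poly(A) tail and have many similar copies, which makes this count uncertain. The transcription factors *Arid3a* and *Pou2f2* and the RNA-binding protein gene *Bicc1* had shares absent of 67.6%, 67.7% and 75.3%.

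Members of the list of cilium and centrosome genes were *Ift140* and *Cntrob*. *Ift140*, part of the complex that returns cargo from the tip of the cilium, was at 2398, 2746 and 2873 normalized counts for Sal-Sal, 3871, 4182 and 4491 for Sal-Coc and 2869, 3270 and 3123 for Coc-Coc. Its lowest Coc-Coc pool lay just below the highest Sal-Sal pool. *Cntrob*, a protein of daughter centrioles, was at 115, 137 and 168 for Sal-Sal, 269, 208 and 235 for Sal-Coc and 178, 184 and 175 for Coc-Coc. Its Coc-Coc pools all lay above the Sal-Sal pools.

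Members tied to calcium, lipids or an oxidase were *Ppef2*, *Cpne9*, *Pla2g4f*, *Capn1* and *Noxa1*, an activator of NADPH oxidase. *Ppef2*, a protein phosphatase with calcium-binding EF hands, was at 41.7, 54.1 and 64.2 for Sal-Sal, 178, 141 and 137 for Sal-Coc and 83.6, 84.4 and 119 for Coc-Coc, and was called in Coc-Coc against Sal-Sal (log2 fold change 0.84, adjusted p = 0.0460 from edgeR's test). *Cpne9*, a copine that binds membranes in the presence of calcium, had one of the deepest falls, with 203, 165 and 260 for Sal-Sal, 448, 344 and 588 for Sal-Coc and 255, 245 and 276 for Coc-Coc. Of its rise, 80.3% was absent, and its Sal-Coc pools were spread more widely (460 ± 123, SD, n = 3) than the Coc-Coc pools (259 ± 16.0).

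The immune members were *Flt3l*, a cytokine for dendritic cell precursors, *Il3ra*, a cytokine receptor chain, and *Nfkbid*, an inhibitor protein of NF-kappa-B. *Flt3l* had very even Sal-Coc pools, 160, 165 and 160, over 89.3, 84.01 and 101 in Sal-Sal and 107, 109 and 144 in Coc-Coc. Its Coc-Coc pools all lay above the Sal-Sal pools. Among genes of the cytoskeleton, secretion and adhesion (*Ssh3*, *Lrrc16b*, *Plekhg6*, *Sec31b*, *Sema4g*, *Iglon5*) only *Plekhg6* had all Coc-Coc pools above all Sal-Sal pools. *Sema4g*, a semaphorin, lay just inside the fall threshold, with 1251, 1404 and 1344 for Sal-Sal, 1922, 1843 and 1950 for Sal-Coc and 1541, 1246 and 1536 for Coc-Coc. *Lrrc16b*, a regulator of actin filament capping, was at 1163, 1330 and 1969 for Sal-Sal, 3363, 2285 and 2341 for Sal-Coc and 2097, 1728 and 2013 for Coc-Coc. Sal-Sal 3 was above Coc-Coc 2, and Sal-Coc 1 stood well above the other Sal-Coc pools.

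The remaining named members were of mixed kinds. *Acr* (ENSRNOG00000029762), the sperm protease acrosin, was at 23.2, 36.7 and 47.5 for Sal-Sal, 119, 132 and 118 for Sal-Coc and 78.4, 82.5 and 91.5 for Coc-Coc, the next largest rise after *Abcc6* (log2 1.78). In Coc-Coc against Sal-Sal its log2 fold change was 1.22 (adjusted p = 0.0214 from edgeR's test). *Rnf207*, a RING finger protein of heart muscle, was at 97.4, 112 and 123 for Sal-Sal, 248, 288 and 277 for Sal-Coc and 212, 180 and 221 for Coc-Coc, with 41.6% of the rise absent and a log2 fold change of 0.88 over Sal-Sal in the Coc-Coc pools (adjusted p = 0.0161, edgeR). *St6galnac2*, a sialyltransferase, had the lowest mean of all members (41.1), and *Jmjd7*, a hydroxylase, and *AABR07051326.1*, known by a clone name, had means of 124 and 65.0; these 3 genes were called in Coc-Coc against Sal-Sal, with log2 fold changes of 0.97, 0.79 and 0.89. *Mroh1*, a HEAT-repeat protein, was among the 5 most abundant members at 2137 ± 495 for Sal-Sal, 3729 ± 535 for Sal-Coc and 2770 ± 177 for Coc-Coc (SD, n = 3).

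Of the named members, the return was most complete for *LOC100361655*, with 128, 121 and 164 normalized counts for Sal-Sal, 247, 288 and 202 for Sal-Coc and 142, 159 and 116 for Coc-Coc. Its share of the rise absent was 98.5%, and the Coc-Coc and Sal-Sal pools overlapped. *Efcc1*, an EF-hand protein, had the deepest fall of a named member (-0.89), from 85.3, 96.3 and 61.6 in Sal-Coc to 46.0, 45.4 and 39.6 in Coc-Coc, over 20.9, 44.4 and 39.1 in Sal-Sal, where pool 1 was low and pool 2 was above Coc-Coc 3. Deeper falls occurred only for ENSRNOG00000003709 (-1.04) and ENSRNOG00000002013 (-0.99), which have no symbol; they are given because their falls were seen to be the lowest. The 10 members whose Coc-Coc mean was below the Sal-Sal mean were all without a symbol. None of the 28 members without a symbol was called in Coc-Coc against Sal-Sal, where 7.13% of tested genes were called higher and 3.75% lower. Symbols came only from the study's lists of changed genes on the same pools. These counts are thus tied to the naming and are not read as a trait of the 28.

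The gene lists show how the members stood among their relatives. Only genes with a joined symbol can be followed, and these had been listed as changed by the study on the same pools, so their counts are no independent evidence of direction. Of 32 collagens, 14 were joined. In edgeR's test, 13 of them were higher in Sal-Coc than in Sal-Sal and 7 in Coc-Coc than in Sal-Sal. The median log2 fold change of the 14 was 0.91 in the first contrast and -0.31 in Coc-Coc against Sal-Coc, where the median of all tested genes was -0.01 in both. *Col11a1* was the only member among the 14. *Col24a1* was at -0.78, but its pools overlapped. The pools of *Col7a1* overlapped too, and it also missed the fall threshold at -0.399. The basement membrane collagens *Col4a1* and *Col4a2* were at -0.35 and -0.29.

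Among laminin and basement membrane genes, 5 of 21 were joined and 3 were members (*Lamc3*, *Egflam*, *Vtn*). The other 2 were not members: *Fn1* (fibronectin) was at a log2 (Coc-Coc / Sal-Coc) of 0.20 and *Agrn* (agrin) at -0.21. Of 29 endothelial markers, 13 were joined, 11 were called higher in Sal-Coc against Sal-Sal and 2 in Coc-Coc against Sal-Sal, and *Gata2* was the only member among the 13. The 12 others raised by at least 0.4 had a median log2 (Coc-Coc / Sal-Coc) of -0.19, among them *Flt1*, *Tie1* and *Nos3*. The summed normalized count of the 13 was 2966 to 3780 for Sal-Sal, 5452 to 5572 for Sal-Coc and 4110 to 5598 for Coc-Coc. The pericyte and smooth muscle list had 6 of 18 joined, all 6 called higher in Sal-Coc against Sal-Sal and 1 in Coc-Coc against Sal-Sal, with the members *Anpep* and *Vtn*. Its summed count was 1775 to 2274 for Sal-Sal, 2917 to 3185 for Sal-Coc and 2391 to 2937 for Coc-Coc. Both sums include the members named here, whose Sal-Coc pools the rule set highest. The part of these vessel markers in the members' levels was not tested.

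Fibroblast and meningeal markers had 4 of 21 joined, of which *Slc6a13* and *Lamc3* were members. The summed count was 326 to 454 for Sal-Sal, 838 to 957 for Sal-Coc and 552 to 703 for Coc-Coc. It includes the 2 members, whose Sal-Coc pools the rule set highest, so nothing is read from its separation. Of the 2 non-members, *Slc6a12* had separated pools. For *Slc22a8*, Sal-Coc (315, 326 and 242) and Coc-Coc (260, 196 and 270) overlapped. All 4 joined markers were called higher in Sal-Coc against Sal-Sal and 2 in Coc-Coc against Sal-Sal. The betaine and GABA transporter *Slc6a12* had log2 (Sal-Coc / Sal-Sal) of 3.23 and log2 (Coc-Coc / Sal-Coc) of -0.91, but its mean of 13.6 was below the minimum. Of 35 ABC transporters 13 were joined, and *Abcc6* and *Abca7* were members; the 11 others had a median log2 (Coc-Coc / Sal-Coc) of -0.14, and *Abca4* was at 0.53. Of 41 cilium and centrosome genes 19 were joined, 18 were called higher in Sal-Coc against Sal-Sal and 9 in Coc-Coc against Sal-Sal. The remaining gene, *Rfx3*, was called lower in Sal-Coc against Sal-Sal (log2 fold change -0.88), and was at 0.87 in Coc-Coc against Sal-Coc. Of 61 splicing and nuclear RNA-binding genes 27 were joined, all 27 were called higher in Sal-Coc against Sal-Sal and 23 in Coc-Coc against Sal-Sal, and none was a member. Their log2 (Coc-Coc / Sal-Coc) ran from -0.29 to 0.17.

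**Figure D5:**
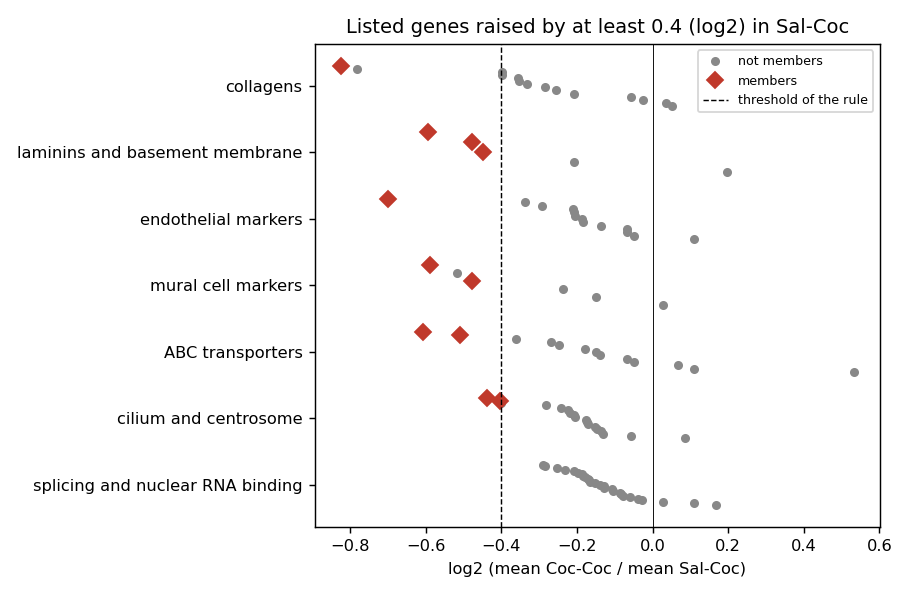
Log2 (mean Coc-Coc / mean Sal-Coc) of genes of 7 gene lists that were raised by at least 0.4 (log2) in Sal-Coc; diamonds are members, grey dots are not. Collagens run from -0.82 to 0.05 and splicing genes from -0.29 to 0.17, and grey dots left of the dashed threshold are genes whose Sal-Coc pools overlapped another group or whose mean was below 40.

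No joined gene of the marker lists of other cell types was a member, and the 28 members without a symbol could not be looked up in any list. Of 8 astrocyte markers 2 were joined, with a summed normalized count of 60186 to 77849 for Sal-Sal, 43165 to 47816 for Sal-Coc and 52810 to 71401 for Coc-Coc. Both were called lower in Sal-Coc against Sal-Sal, opposite in sign to the members, and neither was called in Coc-Coc against Sal-Sal. The lists of oligodendrocytes, microglia and ependyma had 0 joined genes. The only joined blood cell gene, *Hba-a2*, was at 11.6 to 38.3 for Sal-Sal, 21.1 to 48.7 for Sal-Coc and 59.9 to 139 for Coc-Coc, highest in Coc-Coc, and its near-identical copies leave the value uncertain. No member was among the joined genes of the lists for neuropeptides (2 of 29 joined), dopamine signalling (1 of 20), glutamate receptors (7 of 26), immediate early genes (4 of 22) and neurofilaments (3 of 17).

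The 8 genes listed by the study for Coc-Coc against Sal-Coc with a lower level were followed by name, and none was a member. *Nefm*, *Nts*, *Elavl2*, *Pvalb*, *Adra2b*, *Sstr3*, *Glra2* and *LOC100912852* had log2 (Coc-Coc / Sal-Coc) between -1.18 and -0.70, deeper than most members. Their log2 (Sal-Coc / Sal-Sal) was only 0.03 to 0.36, under the 0.4 of the rule, and their Coc-Coc mean lay below Sal-Sal by 0.42 to 0.97. *Glra2* and *Nefm* had separated pools and missed only the rise, which was 0.17 for *Nefm*, a neurofilament subunit. *Glra2*, a glycine receptor subunit, had 401, 399 and 501 normalized counts for Sal-Sal, 629, 517 and 511 for Sal-Coc and 287, 260 and 422 for Coc-Coc. Its Sal-Coc pools lay above both other groups, narrowly over Sal-Sal 3, and its rise was 0.35, whereas *Adra2b* had a rise of 0.36 with overlapping pools. On the fall threshold *Tstd1* (-0.398) and *Nav2* (-0.394) lay just outside and *Sema4g* (-0.402) just inside. In all, 255 genes failed only the fall, 3 only the rise, 147 only the separation of pools and 118 only the mean.

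Members also tended to deviate together within groups. After subtraction of each group's mean, the correlation between 2 members over the 9 pools had a median of 0.31 over 3486 pairs. For all genes with a mean of at least 40 it was -0.001. These values are a description, since pools share depth and dissection and the members were chosen on the same pools. The other genes raised in Sal-Coc were not set beside them. *Abcc6*, *Mroh1*, *L3mbtl1* and *Pdzd7*, a scaffold protein of hair cell stereocilia, were most like the mean of the other members (0.97, 0.96, 0.96 and 0.94). Their lowest saline pool was Sal-Sal 1. The correlation with the mean of the other members exceeded 0.5 for 51 members. These included all 7 transcription, chromatin and RNA members and all 5 membrane transporters and channels, so a value above 0.5 was not particular to 1 role. The value was below 0 for 10 members, 6 of them without a symbol and lowest for ENSRNOG00000006025 (-0.74) and ENSRNOG00000003709 (-0.71). The named ones were *Plekhg6* (-0.68), *Scube1* (-0.35), *Hspa12b* (-0.15) and *AC107174.2* (-0.12), and *Kank3* was at 0.03. For *Hspa12b*, *Kank3* and *Scube1*, Sal-Sal 3 was 0.82, 0.90 and 0.89 times Sal-Sal 1, whereas the median of all members was 1.36.

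Promoter sequence was read from RefSeq for GRCr8, a later build than the counts, as the 250 bases before the annotated start. Of the 56 named members 41 had an entry, 1 of them under a newer symbol. Their median GC content was 60.4%, against 59.6% for 1136 joined genes and 52.0% for all 27457 genes in the table. They held a median of 10 CG dinucleotides, against 16 and 6. A GC box (GGGCGG, either strand) was present in 58.5% of the members, 57.9% of the joined genes and 32.4% of all genes. A CCAAT box (CCAAT, either strand) was present in 36.6%, 34.2% and 34.3%, and a TATA box (TATAAA, either strand) in 12.2%, 6.6% and 13.1%. The cAMP response element TGACGTCA, a palindrome, was present in 0 of the 41, 3.08% of joined genes and 1.7% of all genes. An AP-1 site (TGANTCA, either strand) was in 4.88%, 4.75% and 6.36%, and the GATA motif (AGATAA, either strand) in 2.44%, 4.93% and 10%. The promoters of 3 members are printed: the member with the largest rise, the matrix member with the deepest fall and the chromatin member called in Coc-Coc against Sal-Sal, with GC, CCAAT and TATA boxes in capitals.
Abcc6, GRCr8 chr1:105637896-105638145, minus strand: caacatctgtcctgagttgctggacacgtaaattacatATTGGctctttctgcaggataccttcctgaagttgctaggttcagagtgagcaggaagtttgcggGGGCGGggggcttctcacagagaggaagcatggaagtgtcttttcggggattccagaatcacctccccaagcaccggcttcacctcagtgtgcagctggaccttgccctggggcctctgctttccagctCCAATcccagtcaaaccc
Col11a1, GRCr8 chr2:204508886-204509135, plus strand: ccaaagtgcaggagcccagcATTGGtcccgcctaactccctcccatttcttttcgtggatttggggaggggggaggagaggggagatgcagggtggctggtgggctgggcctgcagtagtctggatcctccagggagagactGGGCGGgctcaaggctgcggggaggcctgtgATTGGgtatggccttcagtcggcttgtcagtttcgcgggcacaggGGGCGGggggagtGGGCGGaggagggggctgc
L3mbtl1, GRCr8 chr3:172021166-172021415, plus strand: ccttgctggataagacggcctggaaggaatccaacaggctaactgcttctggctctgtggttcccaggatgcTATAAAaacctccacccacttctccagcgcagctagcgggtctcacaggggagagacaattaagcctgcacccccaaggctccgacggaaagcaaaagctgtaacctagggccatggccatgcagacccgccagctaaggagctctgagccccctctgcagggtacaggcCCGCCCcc

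The *Abcc6* window holds CCAAT letters on both strands and a GC box, the *Col11a1* window 3 GC boxes, and the *L3mbtl1* window a TATA box far from the start and a GC box next to it. These matches describe letters and not bound sites.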

How the data were processed

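RNA of the nucleus accumbens was sequenced as poly(A)-selected, stranded libraries. The authors trimmed poly-N tails, removed reads of 40 bases or less and of a mean quality of 30 or less, aligned with STAR 2.4.0k to Ensembl 84 and dropped reads that mapped more than once. The authors deposited raw counts per gene, unnormalized; the processing notes also name HTSeq 0.5.3. The 36 tables were summed to 9 pools by title. Members were found by the rule on counts divided by median-of-ratios size factors. Members, roles and gene lists were chosen with earlier results of these data known. The tests came from edgeR 4.0.16 under R 4.3.3, a quasi-likelihood fit to the 9 pools after filterByExpr and TMM, with Benjamini-Hochberg adjustment over every tested gene. The SE beside a log2 fold change was derived as its absolute value divided by the square root of the test's F statistic. Tests were checked on simulated data. The alternatives were other normalizations and filters, DESeq2 1.42.0, limma 3.58.1 (voom), a block for pool number, only the 6 pools compared, other thresholds, single technical replicates and leaving out each pool.

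Symbols were joined by value: a fold change in the study's lists had to equal, to 6 significant digits, the ratio of group means of 1 gene. This gave 1506 of 1539 symbols, and the folds of joined genes equal the listed ones by construction. Genes were named by a rule: members in a list, the 10 largest rises and 10 deepest falls, the 5 highest means, at most 10 members called in Coc-Coc vs. Sal-Sal, genes next to a threshold and 8 genes listed by the study. Other named members were described after their values were seen. Promoter shares were set beside joined genes and all table entries, since identifiers could not be paired with the reference.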

Additional observations from a re-analysis of the deposited data

How the results depend on the processing

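The rule gave 84 members. It gave 128 with scaling by library totals, 148 with folds of 0.3 and 47 with folds of 0.5, and between 73 and 142 when each pool was left out. Without Sal-Coc 1, 127 genes met the rule, of which 56 were among the 84. Only 10 members met it in each of the 4 technical replicates alone, with a mean of at least 10. Calls in Sal-Coc against Sal-Sal were 2572 (65 members), 1445 (42 members) with only the 6 pools compared, and 982 to 2835 (34 to 66 members) with a pool left out, with the fewest without Sal-Sal 1 (982), Sal-Coc 3 (1201) and Sal-Coc 2 (1203). Calls in Coc-Coc against Sal-Coc were 0, but 5 with no filter and 153 with DESeq2 (13 members), and 0 to 1 with a pool left out. Calls in Coc-Coc against Sal-Sal were 1702 (12 members), 2869 with DESeq2 (21 members), 1126 with pool number as replicate block (6 members), 1290 with only the 6 pools compared (6 members), and 0 to 2131 (0 to 22 members) with a pool left out; 0 remained without Coc-Coc 3, where 3533 genes had an unadjusted p under 0.05. The causes were not tested. Same-numbered pools showed no common deviation on average (mean correlation -0.03 over 9 pairs, 0.02 over 18 others). The 9 values ran from -0.36 to 0.25, too wide a range to exclude a pairing by number. The replicate block gave 2084 calls (57 members) in Sal-Coc against Sal-Sal and 0 in Coc-Coc against Sal-Coc.

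Of the values of 40 named genes under 17 alternatives, 9 of 2040 changed sign, all near 0. Calls were lost in 95 values for Coc-Coc against Sal-Sal and 32 for Sal-Coc against Sal-Sal, and gained in 17 for Coc-Coc against Sal-Sal and 16 for Coc-Coc against Sal-Coc. For Sal-Coc against Sal-Sal, leaving out each pool moved *Elavl2* between -0.0654 and 0.19 and *Sstr3* between -0.0223 and 0.38. For Coc-Coc against Sal-Sal, it moved *LOC100361655* between -0.0874 and 0.17 and *Vtn* between -0.0047 and 0.35, and upper-quartile scaling put *LOC100361655* at -0.0073. Of the members, 26 had a mean under 100, where relative counting error is largest.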
